A study of Rattus norvegicus with 36 samples.

Results

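Transcript levels of microglia and complement genes were followed in the rat striatum. The genes were chosen by identifier as *C1qa* (ENSRNOG00000012807), *C1qb* (ENSRNOG00000012804), *Itgam* (ENSRNOG00000019728), *Aif1* (ENSRNOG00000000853) and *Cd68* (ENSRNOG00000037563), and those whose raw counts averaged 50 or more over all 36 libraries were kept. 4 of the 5 genes met that minimum, out of 23965 genes in the table and 12657 genes that reached it. *Cd68* had a mean of 22.2 counts and is described separately.

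Striatal RNA came from 36 male Sprague Dawley rats aged 2 months. Wildtype (WT) and BACHD transgenic (TG) animals were raised in a standard environment (SE), with enrichment (EE) or after maternal separation (MS, written as ELS in the labels), which gave 6 groups of 6 animals, WT-SE, TG-SE, WT-EE, TG-EE, WT-MS and TG-MS. BACHD rats carry the whole human *HTT* locus with its own regulatory elements on a bacterial artificial chromosome. Exon 1 of the transgene encodes an expanded polyglutamine stretch, and the animals are a model of Huntington disease. WT animals were littermates without the transgene. SE animals lived in standard cages, EE animals lived from weaning in larger cages with more cage mates and changing toys, and MS pups were taken from their mother daily in the first weeks of life and then housed as SE. Whole litters were assigned to one environment, so litter and environment cannot be told apart, and animals of a group may be littermates. The p-values below rest on the spread between these animals.

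Microglia are the resident macrophages of the brain. C1q, the recognition molecule of the classical complement pathway, is assembled from A, B and C chains, and in the brain its main source is microglia. It can tag synapses, after which fragments of complement C3 are deposited. Complement receptor CR3 reads such fragments, and its alpha chain is the product of *Itgam* (CD11b). *Aif1* encodes Iba1, an actin-binding protein that serves as the usual stain for microglia. *Cd68* encodes a lysosomal glycoprotein of phagocytes. Microglial activation has been described in the striatum in Huntington disease.

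Promoter sequences are shown for the 2 C1q chains, which neighbour each other with *C1qc* between them in the annotation and varied together in these libraries, and for *Itgam*, which did not vary with them. The 250 bases before the annotated start are given 5′ to 3′ on the strand of the gene, from RefSeq on GRCr8. That build is not the one used for the counts. Capitals mark GGAA or its complement TTCC, the core recognised by ETS factors such as PU.1, a transcription factor of macrophages and microglia. The *C1qa* window is chr5:154419934-154420183 on the minus strand, the *C1qb* window is chr5:154407828-154408077 on the minus strand, and the *Itgam* window is chr1:192089342-192089591 on the plus strand.
C1qa: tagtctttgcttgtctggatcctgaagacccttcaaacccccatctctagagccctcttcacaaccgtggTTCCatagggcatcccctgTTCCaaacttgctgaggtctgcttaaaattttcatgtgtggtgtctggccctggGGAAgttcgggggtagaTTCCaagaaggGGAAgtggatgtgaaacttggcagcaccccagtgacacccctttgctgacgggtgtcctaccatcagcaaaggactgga
C1qb: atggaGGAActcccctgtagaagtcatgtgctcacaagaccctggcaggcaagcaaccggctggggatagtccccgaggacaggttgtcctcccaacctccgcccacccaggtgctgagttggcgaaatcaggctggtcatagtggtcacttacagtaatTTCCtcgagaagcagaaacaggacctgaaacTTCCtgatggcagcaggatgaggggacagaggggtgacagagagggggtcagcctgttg
Itgam: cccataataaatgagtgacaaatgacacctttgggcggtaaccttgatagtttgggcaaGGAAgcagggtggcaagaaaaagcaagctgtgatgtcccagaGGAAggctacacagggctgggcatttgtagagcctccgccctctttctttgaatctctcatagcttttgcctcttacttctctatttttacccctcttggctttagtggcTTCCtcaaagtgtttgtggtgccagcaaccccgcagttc

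The core was counted on both strands. The *C1qa* window held 5 matches, a count reached by 19.04% of the 33469 RefSeq promoter windows of that length. The *C1qb* and *Itgam* windows held 3 matches each, as the median window did, and 55.5% of windows held at least 3. The longer motif GAGGAA, which contains the core, was found 2 times in *C1qb*, 2 times in *Itgam* and 0 times in *C1qa*, and 23.3% of windows held it. TATAAA was found in none of the 3 windows, against 12.9% of all windows. These counts describe letters in a window and do not show binding.

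Levels are given as CPM, read counts that TMM scaling brought to a common library total with a factor for each library's composition. They are compared between groups for each gene and not between genes. Library totals ranged from 9895073 to 19284439 counts.

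*C1qa*, the A chain of C1q, averaged between 43.8 and 51.0 CPM in the 6 groups. Its mean was highest in TG-MS at 51.0 ± 3.28 CPM (SD, n = 6), followed by WT-MS at 49.8 ± 4.75 CPM and WT-SE at 49.0 ± 4.93 CPM. TG-SE followed at 48.2 ± 4.72 CPM, TG-EE at 47.9 ± 6.41 CPM and WT-EE at 43.8 ± 4.93 CPM. WT-SE libraries ran from 42.3 CPM over a median of 50.3 CPM to 55.4 CPM, and WT-EE libraries from 34.9 CPM over a median of 44.7 CPM to 49.1 CPM. The ranges of these groups overlapped, and the highest WT-EE animal lay below the WT-SE median.

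*C1qb*, the B chain, had its highest means after maternal separation, at 21.2 ± 1.71 CPM (SD, n = 6) in WT-MS and 21.2 ± 2.75 CPM in TG-MS. TG-EE followed at 20.1 ± 2.95 CPM, WT-SE at 18.99 ± 3.54 CPM, TG-SE at 18.9 ± 3.11 CPM and WT-EE at 17.3 ± 1.97 CPM. WT-MS libraries ran from 19.8 CPM over a median of 20.7 CPM to 24.3 CPM, whereas WT-SE libraries ran from 14.1 CPM over a median of 19.9 CPM to 22.6 CPM. The lowest WT-MS animal lay close to the WT-SE median, and the highest lay above all WT-SE animals.

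*Itgam*, the complement receptor chain, had the widest spread of the tested members. Its mean was highest in TG-SE at 16.8 ± 2.98 CPM (SD, n = 6), WT-MS at 15.9 ± 4.82 CPM and WT-SE at 15.5 ± 1.70 CPM. Lower means were found in TG-EE at 13.9 ± 3.13 CPM, TG-MS at 12.7 ± 3.92 CPM and WT-EE at 11.7 ± 4.32 CPM. The WT-SE animals were close together, from 13.4 CPM over a median of 15.3 CPM to 17.9 CPM. The WT-EE animals ran from 5.85 CPM over a median of 10.8 CPM to 18.1 CPM, so that 4 of the 6 lay below every WT-SE animal and 1 lay above all of them. The lowest WT-EE library held 73 *Itgam* reads.

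*Aif1*, the gene of the microglial stain Iba1, was highest on average in TG-EE at 18.3 ± 3.52 CPM (SD, n = 6) and WT-MS at 18.1 ± 2.77 CPM. TG-SE followed at 17.8 ± 5.90 CPM, WT-SE at 17.2 ± 2.59 CPM, TG-MS at 16.5 ± 2.59 CPM and WT-EE at 15.7 ± 2.79 CPM. TG-SE animals spread from 11.6 CPM over a median of 16.8 CPM to 27.7 CPM and contained the whole ranges of WT-SE, WT-EE, TG-EE and WT-MS.

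For *Cd68*, the phagocyte lysosomal gene, group means lay between 1.46 and 2.27 CPM. WT-MS was highest at 2.27 ± 0.285 CPM (SD, n = 6) and TG-MS next at 2.02 ± 0.569 CPM. WT-EE had 1.59 ± 0.332 CPM, WT-SE 1.58 ± 0.595 CPM, TG-SE 1.54 ± 0.589 CPM and TG-EE 1.46 ± 0.532 CPM. In each gene's order of means, no neighbouring groups differed by more than the larger of their SDs. WT-EE had the lowest mean of *C1qa*, *C1qb*, *Itgam* and *Aif1*, but not of *Cd68*.

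**Figure D1:**
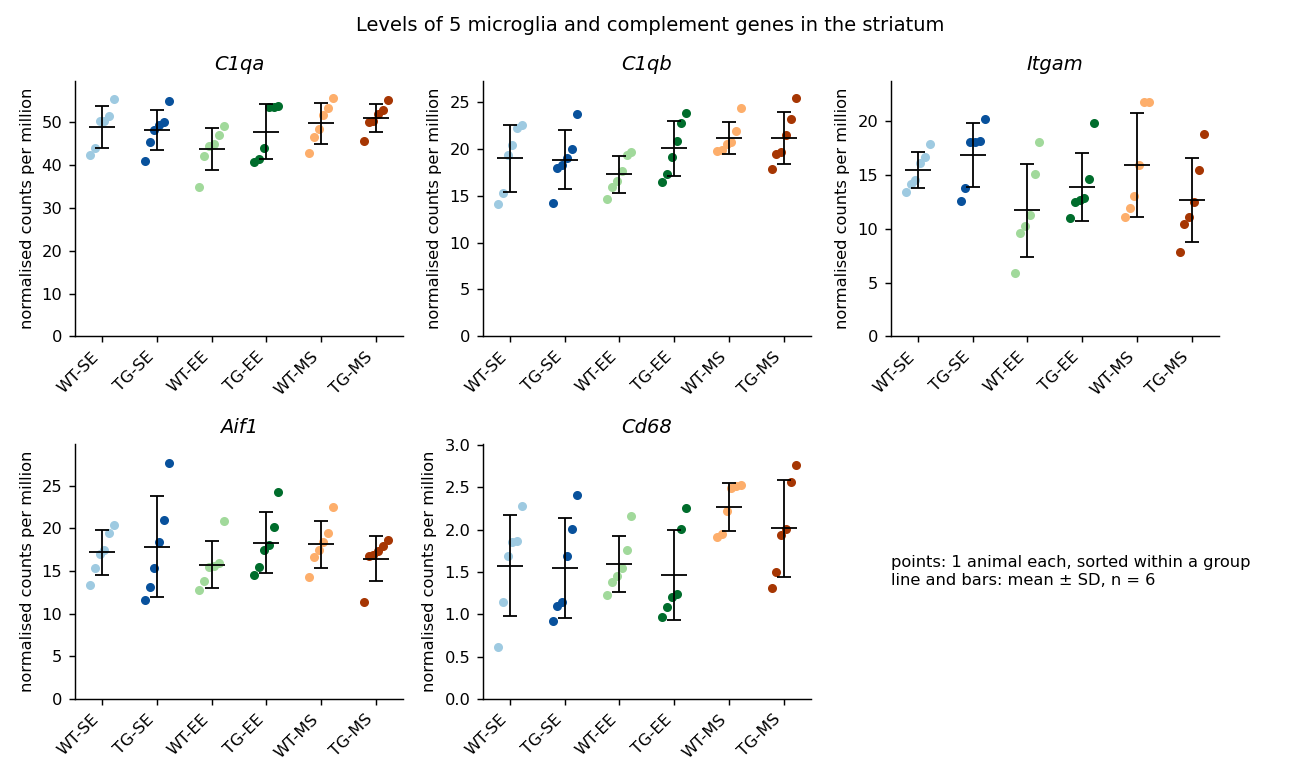
Levels of the 5 genes in normalised CPM by group, with 1 point per animal, sorted from low to high within a group, and the mean ± SD of 6 animals. The groups overlap for every gene, and WT-EE has the lowest mean for *C1qa*, *C1qb*, *Itgam* and *Aif1*.

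The first question was whether the *HTT* transgene changed these genes. None of the 4 tested members was called in TG/WT averaged over the environments, where 0.577% of all tested genes were called. A call required an adjusted p up to 0.1 in edgeR's quasi-likelihood test together with a log2 fold change of 0.3 or more in either direction. The fitted TG/WT difference, with surrogate variables for unlabelled variation, was 0.07 (SE 0.05, adjusted p = 0.515) on the log2 scale for *C1qa*. For *C1qb* it was 0.08 (SE 0.05, adjusted p = 0.466), which was the smallest adjusted p of any member in any of the 12 contrasts. The 95% confidence interval ran from -0.03 to 0.16 for *C1qa* and from -0.02 to 0.19 for *C1qb*. Both intervals stayed inside the fold change of 0.3 that a call required. *Aif1* had a difference of 0.06 with an interval from -0.06 to 0.18, and *Itgam* one of -0.05 with a wider interval from -0.30 to 0.20. In bulk tissue, fewer cells of a type and less RNA per cell cannot be told apart.

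Within single environments, 0 of the 4 members were called in TG-SE/WT-SE, TG-EE/WT-EE or TG-MS/WT-MS, against 0.213%, 0.411% and 0.134% of all tested genes. In TG-EE/WT-EE the differences were 0.08 (SE 0.08) for *C1qa*, 0.15 (SE 0.09) for *C1qb* and 0.16 (SE 0.10) for *Aif1*. For the same genes they were 0.05, 0.09 and 0.05 in TG-SE/WT-SE, and 0.08, 0.01 and -0.02 in TG-MS/WT-MS. *Itgam* had the largest differences of the 4. It was 0.42 in TG-EE/WT-EE (SE 0.22, interval -0.02 to 0.86, edgeR adjusted p = 0.471), but 0.25 (SE 0.21) without surrogate variables. With single libraries left out it ran from 0.24, without the WT-EE library lowest in *Itgam*, to 0.60, without the WT-EE library highest in *Itgam*. In TG-MS/WT-MS it was -0.41 (SE 0.23, interval -0.88 to 0.06, edgeR adjusted p = 0.751). The signs were opposite, and each interval included 0. For the interaction with EE, the genotype difference in EE minus that in SE, the receptor chain had 0.57 (SE 0.33, interval -0.09 to 1.24, adjusted p = 0.999). That value rested on the surrogate variables, since it was 0.14 (SE 0.29) without them and 0.15 (SE 0.30) with runs of libraries as covariate. The interaction with MS was -0.25 (SE 0.32, adjusted p = 0.999), and -0.44 (SE 0.29) without surrogate variables. No member and no other gene was called for either interaction, a share of 0% of the tested genes. At an unadjusted p under 0.05 there were 509 genes for the EE interaction and 532 for the MS interaction, and DESeq2 without surrogate variables called 19 and 1.

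The second question was whether enrichment changed the genes. In EE/SE averaged over genotypes, none of the 4 members was called and 1 gene in all, or 0.0079% of those tested. *C1qa* had a difference of -0.16 (SE 0.06, interval -0.27 to -0.04), a level 0.897 times that in SE, with an unadjusted p of 0.00939 and an edgeR adjusted p = 0.903. *C1qb* had -0.12 (SE 0.06, interval -0.25 to 0.01) and *Aif1* -0.02 (SE 0.07, interval -0.17 to 0.12). *Itgam* had -0.31 (SE 0.15, unadjusted p = 0.0495 from edgeR, adjusted p = 0.9995). The differences of the C1q chains depended on the surrogate variables, without which *C1qa* had -0.09 (SE 0.06) and *C1qb* -0.02 (SE 0.08). *Itgam* had -0.34 without them. The median absolute difference of the 4 members was 0.14, beside 0.03 over all tested genes, and without surrogate variables it was 0.07 beside 0.05. The medians were not matched for count or spread, and all 4 members varied more between animals than the median gene with similar counts. Few genes with as few counts as *Itgam* varied as much between animals, as given below.

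*Itgam* was next compared within each genotype. In WT-EE/WT-SE the fitted difference was -0.59 (SE 0.21, interval -1.02 to -0.16), a level 0.663 times that of WT-SE, with an unadjusted p of 0.00875 and an edgeR adjusted p = 0.694. In TG-EE/TG-SE it was -0.02 (SE 0.23, interval -0.49 to 0.45). Without surrogate variables these differences were -0.41 (SE 0.21) in WT and -0.28 (SE 0.20) in TG, and with runs as covariate they were -0.43 and -0.28. The distance between the genotypes is the EE interaction given above, which was not called. With each library left out in turn the WT difference stayed between -0.73 and -0.44, the smaller being without the lowest WT-EE library. *C1qa* had -0.17 (SE 0.08, unadjusted p = 0.0426, edgeR adjusted p = 0.816) in WT-EE/WT-SE and -0.15 (SE 0.09) in TG-EE/TG-SE. Without surrogate variables it had -0.16 (SE 0.08) in WT and -0.01 (SE 0.08) in TG. In WT-EE/WT-SE and in TG-EE/TG-SE, 0% of the tested genes were called, with 762 and 386 genes at an unadjusted p under 0.05. DESeq2 called at most 2 and 10 genes in these contrasts, and 0 members.

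The third question was whether maternal separation changed the genes. In MS/SE averaged over genotypes the differences were -0.05 (SE 0.06) for *C1qa*, 0.01 (SE 0.07) for *C1qb*, -0.01 (SE 0.08) for *Aif1* and -0.17 (SE 0.16) for *Itgam*. No member was called here, in WT-MS/WT-SE or in TG-MS/TG-SE, and each of the 3 contrasts had 0% of all genes called by edgeR. The unadjusted p was under 0.05 for 796, 777 and 523 genes. DESeq2 without surrogate variables called 3, 60 and 0 genes, and 0 members. The fit put *C1qb* at no difference although its MS means were the highest of the 6 groups. Without surrogate variables the *C1qb* difference was 0.16 (SE 0.08, edgeR adjusted p = 0.409), and with runs of libraries as covariate it was 0.17 (SE 0.07, edgeR adjusted p = 0.263). *C1qb* levels, relative to group means, had a correlation of 0.469 with the second surrogate variable and -0.474 with the third. *Itgam* had -0.30 (SE 0.22) in TG-MS/TG-SE and -0.04 (SE 0.23) in WT-MS/WT-SE. Over the 48 member tests, 4 had an unadjusted p under 0.05 in the fit with surrogate variables. They were *C1qa* and *Itgam* in WT-EE/WT-SE and in EE/SE averaged. The average contains the WT comparison, so these are not 4 separate results. Of the 12657 tested genes, 762 in WT-EE/WT-SE and 607 in EE/SE averaged also had an unadjusted p under 0.05.

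**Figure D2:**
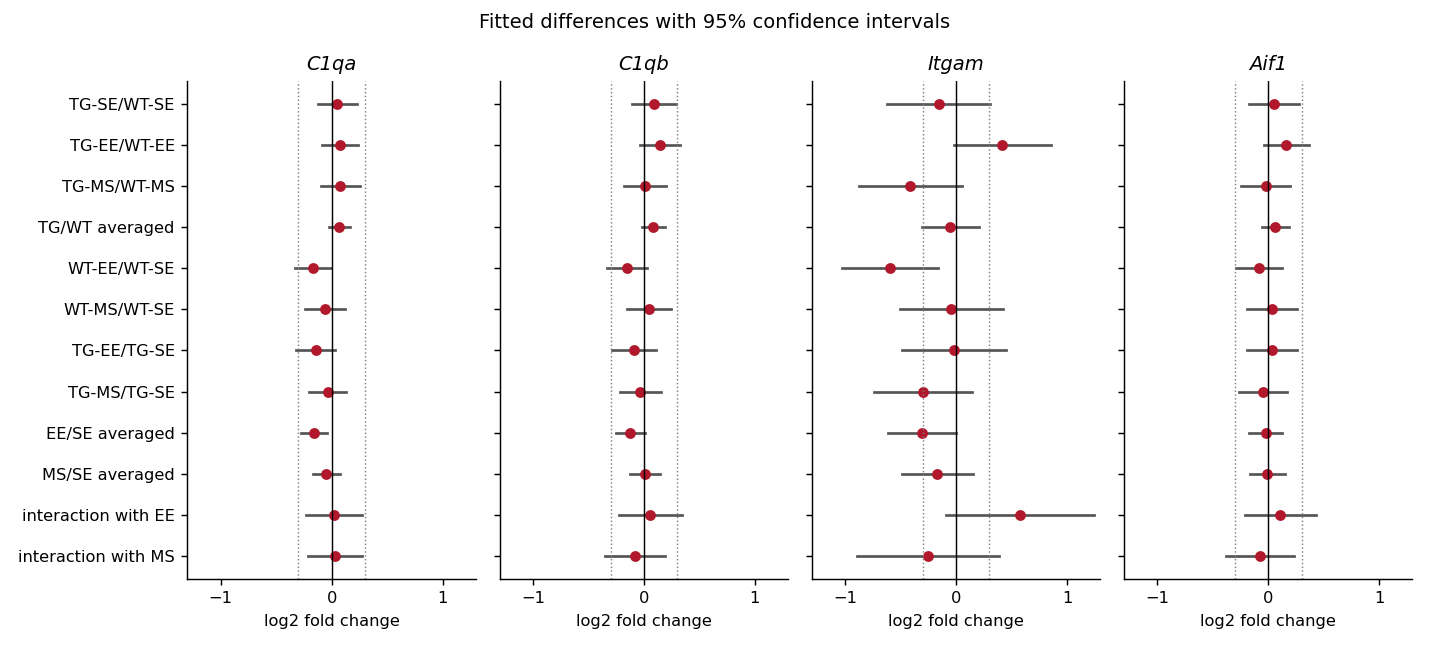
Fitted log2 fold changes (points) with 95% confidence intervals (lines) of the 4 tested genes in 12 contrasts, from the edgeR model with surrogate variables, where dotted lines mark an absolute value of 0.3. The intervals of *Itgam* are wider than those of *C1qa*, *C1qb* and *Aif1* in every contrast. Most intervals include 0, and those that do not belong to *C1qa* and *Itgam* in WT-EE/WT-SE and in EE/SE averaged.

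*Cd68* stayed under the count minimum in every library, with 7 to 44 reads, and 0 of the 36 libraries reached 50. Its comparisons were chosen after its values were seen. Over both genotypes its level was 2.14 ± 0.449 CPM (SD, n = 12) in MS and 1.56 ± 0.565 CPM in SE. MS animals ranged from 1.32 to 2.76 CPM and SE animals from 0.616 to 2.41 CPM, so the ranges overlapped while the lowest values were those of SE. A two-sided permutation test within genotypes gave p = 0.0118. In the single contrast WT-MS/WT-SE the exact permutation p was 0.0173, and 0.121 after adjustment over 7 contrasts. In edgeR fits of the whole unfiltered table, the MS/SE difference was 0.26 (SE 0.21, adjusted p = 0.951) with surrogate variables. It was 0.44 (SE 0.18, adjusted p = 0.470) without them and 0.46 (SE 0.17, adjusted p = 0.303) with runs of libraries as covariate. In that unfiltered table with surrogate variables, 0% of 23965 genes were called for MS/SE. EE/SE for *Cd68* was 1.53 against 1.56 CPM (permutation p = 0.873). The difference after maternal separation therefore did not hold as a call across all genes.

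C1q needs its chains together, so the ratio of *C1qa* to *C1qb* reads within a library was compared, which does not depend on scaling. The ratio averaged 2.49 ± 0.271 (SD, n = 36) and ran from 1.99 to 3.29. It was 2.63 ± 0.424 (SD, n = 6) in WT-SE, 2.59 ± 0.293 in TG-SE and 2.53 ± 0.161 in WT-EE. TG-MS had 2.43 ± 0.221, TG-EE 2.39 ± 0.193 and WT-MS 2.35 ± 0.249. All 6 groups overlapped. Across 7 contrasts the adjusted exact permutation p ran from 0.515 to 0.857, where the smallest p that 6 against 6 animals allow is 0.00216. WT-MS/WT-SE had the largest difference of the log2 ratio, -0.15, with an exact permutation p of 0.203.

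Animals of one group differed in these genes by more than counting error. The SD of log2 levels within groups was 0.38 for *Itgam*, where counting alone would give an SD of 0.11. Of the 1661 genes with similar counts, 4.15% had a larger SD. For *Aif1* it was 0.29 against 0.10 from counting, and 8.88% of genes with similar counts varied more. The C1q chains were closer to other genes, with 0.15 for *C1qa* (30.3% of similar genes varied more) and 0.21 for *C1qb* (21.9%). *Cd68* had 0.45, where counting alone would give an SD of 0.31.

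The members did not vary as one block between animals. *C1qa* and *C1qb* levels, relative to their group means, were correlated over the 36 libraries with Pearson's r = 0.674 (permutation p = 6e-05, adjusted over 10 pairs 0.0006) and Spearman's rho = 0.661 (permutation p = 9e-05). Without the 2 libraries farthest from the median of *C1qa*, r was 0.615, and with differences between runs of 6 libraries also removed it was 0.660. Animals high in one C1q chain were thus mostly high in the other. *C1qa* and *Cd68* had r = 0.494 and rho = 0.518 (permutation p = 0.00463 and 0.00342, adjusted 0.0231 and 0.0171), and 0.478 without the 2 farthest libraries. With runs removed this r was 0.304 (permutation p = 0.0929, adjusted 0.464) and no longer passed. The other 8 pairs had adjusted permutation p from 0.331 to 0.859 for r and from 0.250 to 0.981 for rho. *Aif1* had r = 0.03 with *C1qa*, -0.22 with *C1qb* and 0.10 with *Itgam*. With runs removed these values were -0.08, -0.08 and 0.14. *Itgam* had r = 0.07 with *C1qa* and 0.12 with *C1qb*, so neither marker followed the C1q chains.

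**Figure D3:**
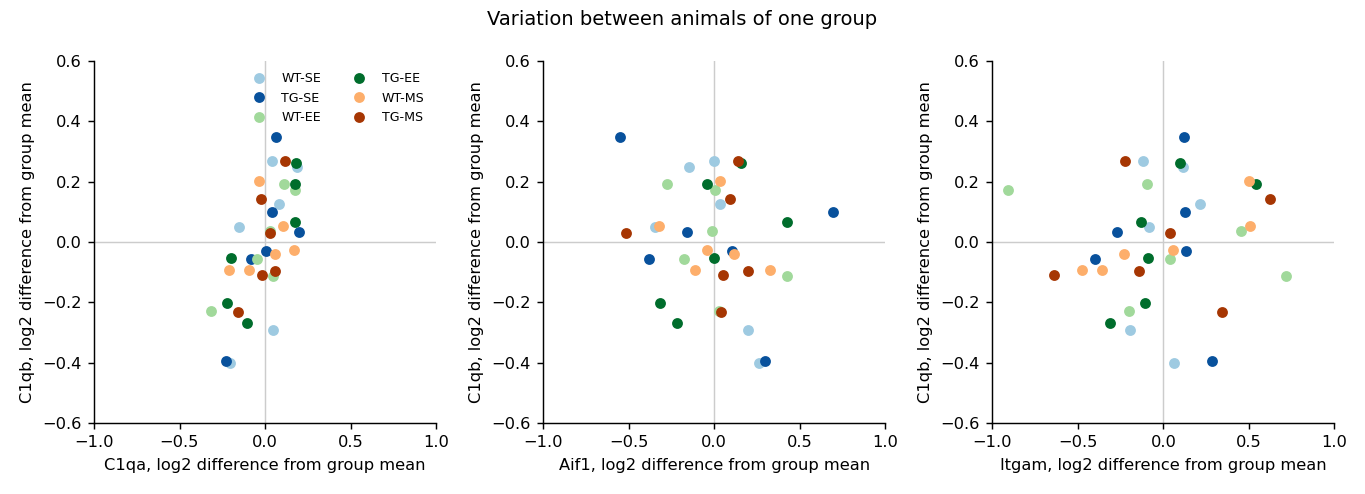
Log2 levels of *C1qb* relative to the group mean (vertical axis) against those of *C1qa*, *Aif1* and *Itgam* (horizontal axes), with 1 point per animal coloured by group. Points rise together for *C1qa* (r = 0.674) and show no such line for *Aif1* (r = -0.22) or *Itgam* (r = 0.12).

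Among the tested genes that are no members, ENSRNOG00000012749 was most like the mean of the 4 standardized members, with r = 0.743 across the 36 libraries after removal of group means. It followed the C1q chains, with r = 0.784 for *C1qa* and 0.609 for *C1qb*, rather than *Itgam* (0.207) or *Aif1* (0.152). Next was ENSRNOG00000009066 with r = 0.650, and the 5 most alike genes ranged from 0.604 to 0.743. No symbol was paired with their identifiers, so any of the 5 may be another microglia or complement gene, *C1qc* included. These correlations are descriptions over libraries that share their scaling, and the highest of all tested genes were taken.

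Libraries carry numbers from 1 to 36 in their titles, and every group has 1 animal in each run of 6 such numbers. The labels do not say what the numbers stand for. *Aif1* fell by 0.59 on the log2 scale from library 1 to library 36 (SE 0.12, interval -0.83 to -0.36), to 0.662 times its level (edgeR adjusted p = 0.000217). *C1qb* rose by 0.26 (SE 0.10, adjusted p = 0.0536). *C1qa* had 0.01 (SE 0.08, adjusted p = 0.954) and *Itgam* 0.11 (SE 0.20, adjusted p = 0.689). Thus 2 of the 4 members were called at an adjusted p of at most 0.1, beside 41.2% of all tested genes, 19.3% lower and 21.9% higher at later numbers. That share is near the background, and the change is not particular to these genes.

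In CPM, *Aif1* averaged 21.2 ± 3.26 (SD, n = 6) in the first run of 6 libraries and 18.3 ± 3.17 in the second. The following runs had 18.2 ± 3.16, 16.1 ± 1.94, 14.3 ± 2.34 and 15.6 ± 2.52 CPM. The lowest library of the first run, at 18.6 CPM, lay above all libraries of the last run, whose highest was 18.4 CPM. Over the 36 libraries the correlation of *Aif1* with library number, after removal of group means, was r = -0.674 and rho = -0.695 (permutation p = 8e-05 and 3e-05, r adjusted over 7 relations 0.00056). Without libraries 1 and 36, the ends of the numbering, r was -0.626. It was negative in every group, from -0.27 in TG-EE to -0.99 in TG-SE. Without the first and last run the fitted change was -0.78 on the log2 scale, set to the span from library 1 to library 36 (edgeR adjusted p = 0.00695, with 30.6% of all genes called). Tested as 6 separate runs, *Aif1* (adjusted p = 0.0123) and *C1qa* (adjusted p = 0.0761) were called by edgeR, beside 30.1% of all genes. *C1qa* averaged 53.7 ± 3.36 CPM in the fourth run and 45.2 ± 6.85 CPM in the fifth.

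For *C1qb* the course was less even. Its correlation with library number was r = 0.412 and rho = 0.411 (permutation p = 0.0264 and 0.0240, r adjusted 0.0616). Without libraries 1 and 36, r was 0.279. Within groups r ran from -0.55 in TG-EE to 0.885 in WT-SE, and the test over 6 runs gave an edgeR adjusted p of 0.136. For *Itgam* the correlation with library number was r = 0.104 (permutation p = 0.558). Within groups it ran from -0.497 in TG-SE to 0.929 in WT-MS.

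The *C1qa* to *C1qb* ratio also moved with library number, from 2.62 ± 0.268 (SD, n = 6) in the first run to 2.28 ± 0.266 in the last. Its correlation with library number was r = -0.538 and rho = -0.499 (permutation p = 0.00289 and 0.00595, r adjusted 0.0101). Without libraries 1 and 36, r was -0.450. Within groups it was negative in WT-SE, TG-SE, WT-EE, WT-MS and TG-MS and 0.404 in TG-EE. Both counts come from the same library, so the scaling cancels. The total count had a correlation with library number of r = 0.281 and rho = 0.316 (permutation p = 0.149 and 0.0888). The cause of the ratio's course was not tested. *Aif1* had a correlation of -0.817 with the second surrogate variable of the model. Its SE in TG/WT averaged was 0.09 without surrogate variables, 0.07 with runs as covariate and 0.06 with surrogate variables, while the difference stayed between 0.04 and 0.06.

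**Figure D4:**
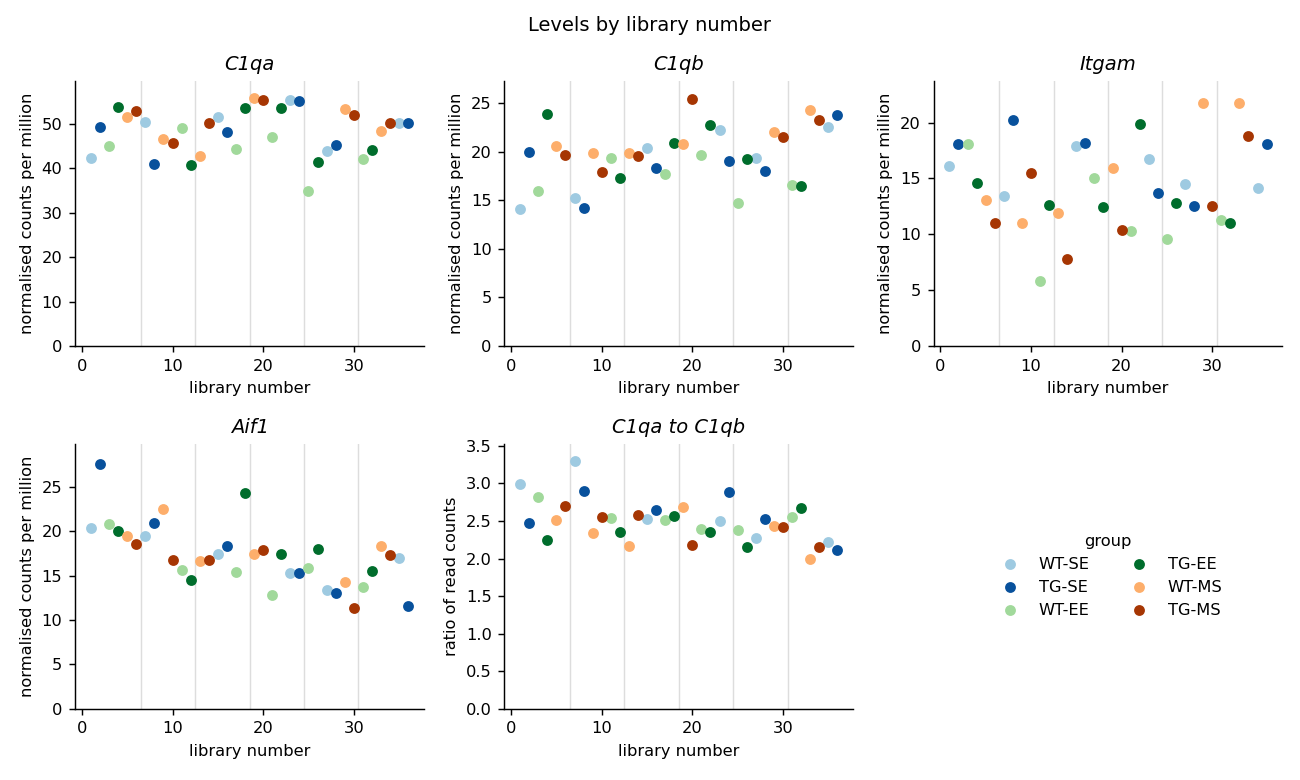
Levels of the 4 tested genes in normalised CPM and the ratio of *C1qa* to *C1qb* reads by library number, with 1 point per animal coloured by group and vertical lines between runs of 6 libraries. *Aif1* falls from a mean of 21.2 in the first run to 15.6 in the last, and the ratio falls from 2.62 to 2.28. Over all groups together *Itgam* shows no such course.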

How the data were processed

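Poly(A) RNA of 36 rat striata was sequenced as paired-end libraries. The authors checked reads with FastQC 0.11.4, aligned them with STAR 2.5.2b to a rat genome (Ensembl) to which the transgene had been added, and deposited raw, unnormalized read counts for each Ensembl gene. Per the submitters' notes DESeq2 1.16.1 was also used. How reads were counted, and whether by strand, is not given in the sources used here, so overlapping genes cannot be told apart. All values are whole, and library totals ran from 9895073 to 19284439 counts. Groups came from genotype and environment in the labels.

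The 12657 genes whose raw counts averaged 50 or more were fitted in one quasi-likelihood model (edgeR 4.0.16, limma 3.58.1, R 4.3.3) with TMM scaling, 1 mean per group, and 5 surrogate variables estimated by svaseq of sva 3.50.0 (permutation procedure, seed 1; its asymptotic procedure gave 0). A call needed a p adjusted over all tested genes (Benjamini-Hochberg) of 0.1 or less and a log2 fold change of 0.3 or more in size. Library number was tested with 1 mean per group, without surrogate variables and at an adjusted p of at most 0.1, as a linear term and as 6 runs. Log2 levels used a prior count of 0.5. Ratios were compared with two-sided exact permutation tests, and correlations with 100000 permutations within groups (Python 3.11.15, scipy 1.17.1). The procedure was tested on simulated data. Intervals are 95% confidence intervals of fitted differences or changes and rest on the spread between animals. They are not ranges of single animals. Counting SDs cover counting error only.

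All 5 members were named. The rule also named the 5 genes most like their mean, of which 2 are printed by identifier. The members and lists were chosen with earlier results of these data known. The table holds no gene symbols, and those of the members came with their selection. The reference at hand pairs no Ensembl identifier with a symbol. The planned lists of other microglia and complement genes, *C1qc* included, were therefore not analysed by name. The same holds for the marker genes of striatal and other cell types and for *HTT*, and the tissue was not checked against markers. Promoters of 4 members were matched by symbol in RefSeq, not that of *Aif1*. Alternatives were no surrogate variables, runs of 6 libraries or library number as covariate, DESeq2 1.42.0 with and without surrogate variables, its size factors in edgeR, 2 other filters on low counts, and each library left out in turn. Library number as covariate, the tests over library number, and those of *Cd68* were added after the data were seen.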

Additional observations from a re-analysis of the deposited data

Results flagged for a closer look

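Within each group of 6 animals, the highest and the lowest library were compared with the rest by the gap to the nearest library as a share of the group's range, for 5 genes and the *C1qa* to *C1qb* ratio. Of 36 groups checked, 2 passed the 95% critical value of 0.625, a number near what chance gives at that level. In TG-MS, the lowest *Aif1* library had 11.4 CPM, while the next had 16.7 CPM and the median was 17.1 CPM, a gap of 0.740 of the range. In WT-EE, the highest *C1qa* to *C1qb* ratio was 2.82, the next was 2.55 and the median was 2.52, a gap of 0.628 of the range.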

How the results depend on the processing

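No member was called in any of the 12 contrasts under any of 8 alternatives or with any of the 36 libraries left out in turn. Of 2112 member values so obtained, 114 had the other sign than the value reported, none of them where both values exceeded their standard errors. The smallest adjusted p was 0.263, for *C1qb* in MS/SE with runs of libraries as covariate. The correlation of *C1qa* with *Cd68* fell from 0.494 to 0.304 (adjusted permutation p = 0.464) once runs were removed, and the cause was not tested. The difference of the log2 C1q ratio in TG-EE/TG-SE was -0.11 (exact permutation p = 0.221). It ran from -0.17 to -0.075 with single libraries left out and passed unadjusted only without TG-SE replicate 6 (-0.17, exact permutation p = 0.0476). Genes called over the whole table moved more. TG-SE/WT-SE had 27 calls, and 28 to 144 under alternatives. TG-EE/WT-EE had 52 (21 to 51), TG-MS/WT-MS 17 (9 to 47) and TG/WT averaged 73 (61 to 160). Contrasts with 0 or 1 calls had at most 60 (WT-MS/WT-SE, DESeq2 without surrogate variables). With single libraries left out the TG/WT counts ran from 14 to 34, 27 to 72, 9 to 22 and 65 to 91. The labels give no replicate numbers that pair animals. Within runs of 6 library numbers, which hold 1 animal of each group, the exact p of the C1q ratio contrasts ran from 0.156 to 0.813, and fits with runs as covariate called no member. Counting limits *Cd68*, for which counting alone would give an SD of 0.31 on the log2 scale, beside the 0.45 found.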
